A study of Mus musculus with 12 samples.

Results

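Glycolysis and glycogen metabolism genes were followed in hind-limb skeletal muscle of αB-crystallin/HspB2 knockout (KO) and wild-type (WT) mice. The set held 36 genes that were listed by their known function, with no measured value in the rule. Earlier results of these data were known when the list was made, so it is not blind to them. All 36 were found among 22923 distinct gene symbols. Proximal hind-limb muscle was taken for RNA sequencing from 12 males aged 22 weeks, in 4 groups, on the FVB/N background (FVB in the labels). WT and KO animals were each kept on either normal chow (chow-fed) or a high fat diet (fat-fed), and the sample titles give 3 libraries a group. KO mice lack both αB-crystallin (Cryab) and HspB2 (Hspb2) in every tissue, so no comparison separates muscle from other organs or 1 gene from the other. The titles call the controls floxed while the methods describe littermates from heterozygous breeding, and the groups here follow the titles. In 6 samples the genotype given among the characteristics differs from the title, and Cryab, whose levels are given with the marker checks, follows the titles in all 12.

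Glycolysis breaks glucose down to pyruvate and yields ATP without oxygen, and fast skeletal muscle fibres depend on it during short, intense work. Glycogen is the muscle's own glucose store. It is built by glycogenin, glycogen synthase and the branching enzyme, and it is broken down by glycogen phosphorylase, which phosphorylase kinase switches on when calcium or adrenaline signals. Many steps are served by isoforms from different genes, with a form typical of skeletal muscle beside forms typical of liver, brain or most other cells. The members therefore hold 10 muscle-type isoforms (Pfkm, Aldoa, Pgam2, Eno3, Ldha, Pygm, Gys1, Phka1, Phkg1 and Ppp1r3a) and 11 other-tissue isoforms (Pfkl, Pfkp, Aldoc, Pgam1, Eno1, Eno2, Ldhb, Pygb, Pygl, Phka2 and Phkg2). The remaining 15 members belong to neither class.

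The promoters of 2 isoform pairs are shown as examples of a muscle-type gene beside an other-tissue gene, and no enrichment was tested. Pgam2 and Pgam1 are the muscle and the ubiquitous phosphoglycerate mutase, and Pygm and Pygl are the muscle and the liver glycogen phosphorylase. Each gene has a single start in the RefSeq promoter table of build GRCm38.p6, and the 250 bases before it are printed 5′ to 3′ on the gene's strand. Capitals mark every E-box (CANNTG, the letters recognised by myogenic factors such as MyoD), every GC box (GGGCGG on either strand) and every match to the MEF2 consensus on either strand. The windows lie at chr11:5803797-5804046 on the minus strand, chr19:41911621-41911870 on the plus strand, chr19:6384158-6384407 on the plus strand and chr12:70227684-70227933 on the minus strand.
Pgam2: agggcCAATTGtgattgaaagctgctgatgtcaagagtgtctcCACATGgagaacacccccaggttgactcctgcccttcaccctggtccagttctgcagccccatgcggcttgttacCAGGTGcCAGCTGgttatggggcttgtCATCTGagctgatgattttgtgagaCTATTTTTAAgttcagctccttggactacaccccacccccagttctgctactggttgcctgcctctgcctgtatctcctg
Pgam1: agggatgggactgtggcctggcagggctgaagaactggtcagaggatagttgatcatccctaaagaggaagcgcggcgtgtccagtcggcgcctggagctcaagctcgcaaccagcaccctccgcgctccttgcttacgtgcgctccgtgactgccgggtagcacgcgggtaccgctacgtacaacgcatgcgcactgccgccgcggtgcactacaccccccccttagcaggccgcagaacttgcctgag
Pygm: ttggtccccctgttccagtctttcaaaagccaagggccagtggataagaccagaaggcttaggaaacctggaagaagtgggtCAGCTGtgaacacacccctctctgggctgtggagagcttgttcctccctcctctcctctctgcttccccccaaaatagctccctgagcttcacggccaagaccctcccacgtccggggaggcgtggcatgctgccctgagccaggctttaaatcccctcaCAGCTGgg
Pygl: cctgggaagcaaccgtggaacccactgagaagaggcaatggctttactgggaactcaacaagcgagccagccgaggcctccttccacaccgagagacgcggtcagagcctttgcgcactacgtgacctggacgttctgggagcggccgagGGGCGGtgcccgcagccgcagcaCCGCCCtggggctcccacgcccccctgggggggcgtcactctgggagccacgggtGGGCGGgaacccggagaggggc

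Pgam2 held 5 E-boxes and 1 MEF2 match that ended 70 bases before the start, while Pgam1 held none of the 3 motifs. The 2 E-boxes of Pygm read CAGCTG, 162 and 2 bases before the start, and Pygl held 3 GC boxes and no E-box. Across the class lists, an E-box lay before at least 1 start of 10 of 10 muscle-type genes and 4 of 11 other-tissue genes, against 69.3% of all 27025 genes in the table. A GC box lay before 4 of 10 and 6 of 11 genes, against 35.4% of all genes, and a MEF2 match before 2 of 10 and 0 of 11, against 3.42%. The letters ACGTG on either strand, the core of a hypoxia response element, lay before 13 of the 36 members (36.1%) and 18.5% of all genes. They can overlap an E-box that reads CACGTG. The muscle-type genes had 16 annotated starts and the other-tissue genes 14, and genes with more starts have more windows in which a motif can lie. These matches describe letters and are not binding sites.

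Levels of the 36 members spanned more than 4 orders of magnitude on the FPKM scale, which is per transcript length and so can be compared between genes. A total of 9 members had a mean over the 12 libraries of at least 1000 FPKM, 10 lay between 100 and 1000, 7 between 10 and 100, 9 between 1 and 10, and 1 under 1. The members together made up between 6.35% and 9.40% of each library's summed FPKM, after the small RNA gene Mir324, which swells the total of 1 library, was left out. In order of mean level they were led by Aldoa at 13255 FPKM, Gapdh at 9239, Eno3 at 4131, Pygm at 3477 and Ldha at 2597. The order held in all 12 libraries down to Ldha, which exceeded Pgam2 in 10 of 12. Only 5 genes of the series had a higher mean than Aldoa. Lower in the order several neighbours were not separated, and Ldhb exceeded Phka1 in 6 of 12 libraries and Pygl exceeded Pygb in 4 of 12. Gapdh, often taken as a constant reference, ranged from 6836 to 13165 FPKM. Gapdh, Eno1, Ldha, Pgam1, Pgk1 and Tpi1 have near-identical processed pseudogenes elsewhere in the mouse genome, so reads may have been split between copies and their levels are less certain.

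**Figure D1:**
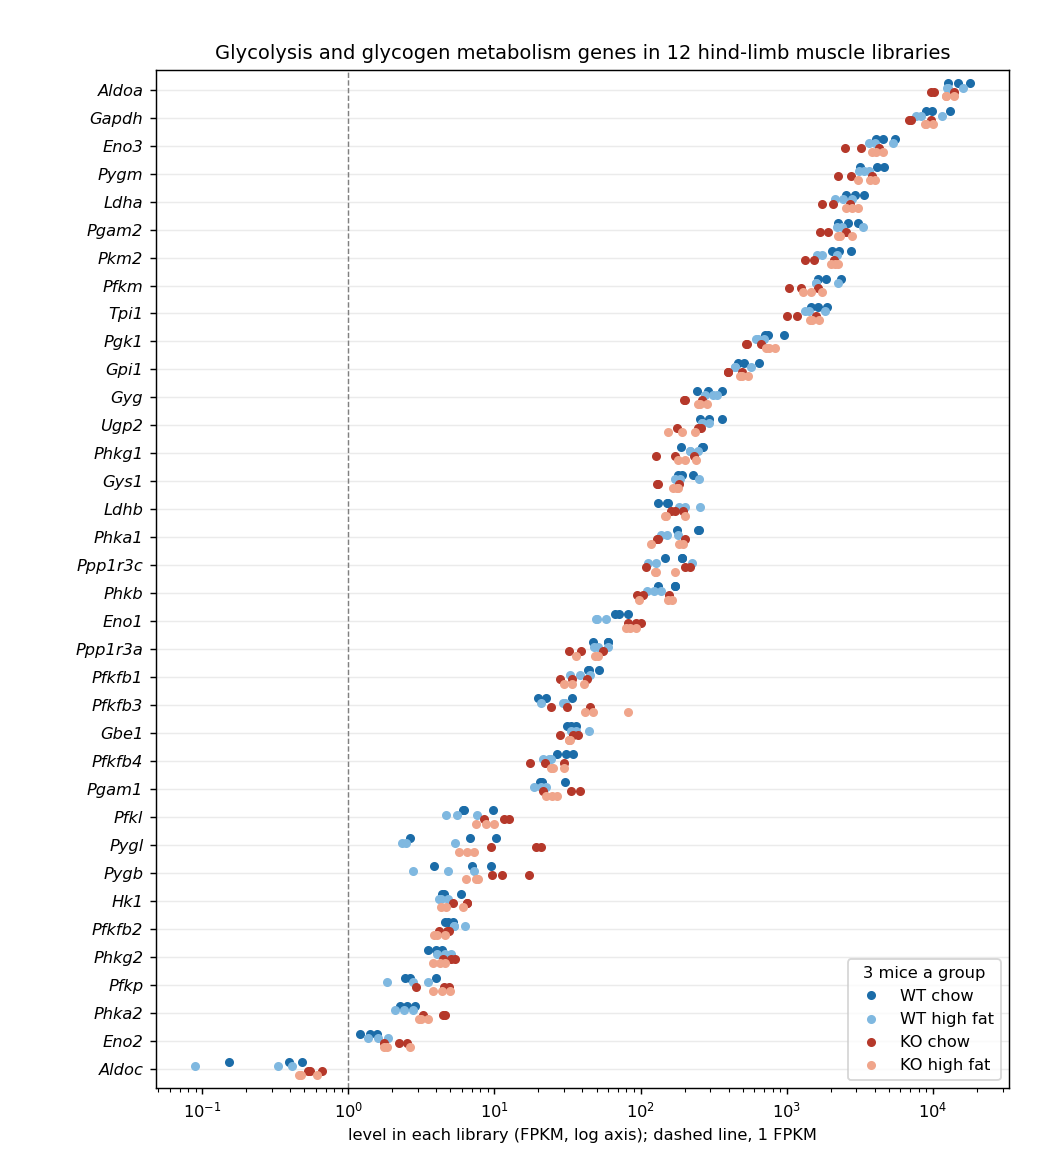
Level of each of the 36 members in each of the 12 libraries, in FPKM on a log axis, with 1 point per mouse coloured by group (3 mice a group) and genes ordered by mean level. Aldoa leads with a mean of 13255 FPKM, and Aldoc is the only member whose points all lie left of the dashed line at 1 FPKM.

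Upper glycolysis traps glucose and splits it into 3-carbon sugars. Within each trio of values the mice are given as replicates 1, 2 and 3. Aldoa, the muscle aldolase, was measured at 17962, 12627 and 14823 FPKM in chow-fed WT mice, 16192, 12468 and 12712 in fat-fed WT mice, 10116, 13877 and 9705 in chow-fed KO mice and 12327, 12261 and 13990 in fat-fed KO mice. Pfkm, the muscle phosphofructokinase that sets the pace of the pathway, was at 2342, 1626 and 1849 FPKM in chow-fed WT mice, 2246, 1583 and 1596 in fat-fed WT mice, 1248, 1638 and 1037 in chow-fed KO mice and 1467, 1297 and 1756 in fat-fed KO mice. For both genes, replicates 1 and 3 of the chow-fed KO mice were the lowest of all 12 libraries, and replicate 2 of that group lay inside the WT range. Gpi1, glucose phosphate isomerase, was at 643, 462 and 513 FPKM in chow-fed WT mice, 567, 445 and 441 in fat-fed WT mice, 399, 495 and 394 in chow-fed KO mice and 494, 477 and 542 in fat-fed KO mice. Tpi1, triose phosphate isomerase, was at 1879, 1463 and 1638 FPKM in chow-fed WT mice, 1832, 1341 and 1411 in fat-fed WT mice, 1182, 1588 and 1002 in chow-fed KO mice and 1484, 1443 and 1665 in fat-fed KO mice. Here too the 2 lowest libraries were replicates 1 and 3 of the chow-fed KO mice. Hk1, a hexokinase found in most tissues, was a low member of this arm at 4.35, 5.91 and 4.54 FPKM in chow-fed WT mice, 4.19, 4.31 and 4.798 in fat-fed WT mice, 6.44, 5.18 and 6.44 in chow-fed KO mice and 4.65, 6.11 and 4.28 in fat-fed KO mice. Its highest values were those same 2 KO libraries, and the 4 groups overlapped. Hk2, a hexokinase outside the member list, was more abundant, at 45.6 to 75.9 FPKM over the 12 libraries.

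Lower glycolysis recovers ATP and makes pyruvate, which lactate dehydrogenase turns into lactate. Gapdh, glyceraldehyde phosphate dehydrogenase, was at 13165, 9035 and 9865 FPKM in chow-fed WT mice, 11510, 7644 and 8291 in fat-fed WT mice, 7084, 9667 and 6836 in chow-fed KO mice and 9006, 8770.5 and 9988 in fat-fed KO mice. Pgk1, phosphoglycerate kinase, was at 957, 712 and 741 FPKM in chow-fed WT mice, 701, 614 and 635 in fat-fed WT mice, 524, 664 and 536 in chow-fed KO mice and 761, 721 and 837 in fat-fed KO mice. For Pgk1, fat-fed WT mice lay just below chow-fed WT mice (701 against 712 FPKM at the closest), a difference that did not pass. Fat-fed KO mice lay above every other group but chow-fed WT mice. Groups of 3 mice can separate by chance, and the share of all genes whose groups separate was not computed. Pgam2 was at 3091, 2236 and 2627 FPKM in chow-fed WT mice, 3313, 2225 and 2390.5 in fat-fed WT mice, 1912, 2526 and 1676 in chow-fed KO mice and 2228, 2307 and 2818 in fat-fed KO mice. Eno3, the muscle enolase, was at 5472, 4053 and 4587 FPKM in chow-fed WT mice, 5304, 3665 and 4014 in fat-fed WT mice, 3239, 4276 and 2511 in chow-fed KO mice and 4094, 3812 and 4544 in fat-fed KO mice. Both repeated the low values of replicates 1 and 3 of the chow-fed KO mice. Pkm2, the older symbol of the pyruvate kinase gene that gives both M1 and M2 enzymes, was at 2749.6, 2027 and 2284 FPKM in chow-fed WT mice, 2212, 1616 and 1756 in fat-fed WT mice, 1534, 2109.7 and 1329 in chow-fed KO mice and 2137, 1998 and 2249 in fat-fed KO mice. Ldha, the lactate dehydrogenase subunit of fast muscle, was at 3404, 2535 and 2929 FPKM in chow-fed WT mice, 2786, 2139 and 2422 in fat-fed WT mice, 2076, 2728 and 1739 in chow-fed KO mice and 2783, 2552 and 3069 in fat-fed KO mice. In fat-fed KO mice both genes lay within the range of chow-fed WT mice or just under it.

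Glycogen synthesis starts on the primer protein glycogenin. Gyg, glycogenin, was at 361, 242 and 291 FPKM in chow-fed WT mice, 334, 313 and 276 in fat-fed WT mice, 201, 264 and 199.7 in chow-fed KO mice and 257, 246 and 285 in fat-fed KO mice. Gys1, the muscle glycogen synthase, was at 227, 181 and 191 FPKM in chow-fed WT mice, 250.2, 172 and 185 in fat-fed WT mice, 130.4, 183 and 132 in chow-fed KO mice and 178, 167 and 181 in fat-fed KO mice. Replicates 1 and 3 of the chow-fed KO mice were again the lowest for both. Ugp2, which makes the UDP-glucose that synthase uses, was at 363, 256 and 292 FPKM in chow-fed WT mice, 295, 261 and 262 in fat-fed WT mice, 176, 247 and 257 in chow-fed KO mice and 191, 154 and 235 in fat-fed KO mice. Gbe1, the branching enzyme, varied least in this arm at 36.1, 33.6 and 31.5 FPKM in chow-fed WT mice, 44.2, 36.3 and 33.2 in fat-fed WT mice, 27.98, 34.2 and 37.5 in chow-fed KO mice and 32.6, 32.3 and 32.2 in fat-fed KO mice. For Ugp2 all 3 fat-fed KO mice lay below all 3 fat-fed WT mice.

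Glycogen breakdown is carried by phosphorylase. Pygm, the muscle form that is lost in McArdle disease, was at 4631, 3197 and 4174 FPKM in chow-fed WT mice, 3677, 3389 and 3107 in fat-fed WT mice, 2733, 3814 and 2239.5 in chow-fed KO mice and 3690.1, 3080.3 and 3995 in fat-fed KO mice. Phosphorylase kinase activates it through regulatory subunits α and β and a catalytic subunit γ. Phka1, the muscle α subunit, was at 248, 176 and 251 FPKM in chow-fed WT mice, 138, 179.8 and 152 in fat-fed WT mice, 132, 199.8 and 129 in chow-fed KO mice and 194, 117 and 183 in fat-fed KO mice. Phkb, the β subunit, was at 172, 131 and 173 FPKM in chow-fed WT mice, 111, 137 and 123 in fat-fed WT mice, 104, 156 and 94.6 in chow-fed KO mice and 163, 97.04 and 154 in fat-fed KO mice. Phka1 and Phkb moved together from library to library, with a Pearson r of 0.97 on the log2 scale across 12 libraries, which share the same RNA samples, so r is a description. Phkg1, the muscle γ subunit, was at 269, 189 and 265 FPKM in chow-fed WT mice, 246, 218 and 217 in fat-fed WT mice, 173, 232 and 127 in chow-fed KO mice and 202, 181 and 239.9 in fat-fed KO mice. A pair of members guide protein phosphatase 1 to glycogen, where it activates synthase. Ppp1r3c, the more abundant, was at 192, 146 and 193 FPKM in chow-fed WT mice, 113, 223 and 128 in fat-fed WT mice, 108, 201 and 218 in chow-fed KO mice and 173, 126 and 127 in fat-fed KO mice. Ppp1r3a, the striated-muscle form, ranged from 32.6 to 60.05 FPKM. Ppp1r3c did not follow the mean of the muscle-type isoforms, with a Pearson r of 0.04, against 0.93 for Ppp1r3a with the mean of the others. Its r was 0.53 with Phka1 and 0.42 with Phkb.

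The muscle-type form held nearly all of the summed FPKM of its family in every library. The share was 98.3% to 99.7% for Pfkm among the phosphofructokinases, 97.8% to 99.4% for Pgam2, 96.1% to 99.03% for Eno3, 98.6% to 99.9% for Pygm, 96.6% to 99.1% for Phka1 and 96.0% to 98.7% for Phkg1. Ldha had the smallest share, 89.3% to 95.7%, with Ldhb, the heart-type subunit, at 131 to 256 FPKM. For Pfkm, Pgam2, Eno3, Phkg1 and Pygm the lowest share was in replicate 3 of the chow-fed KO mice. The other-tissue forms were low: Pfkl ranged from 4.68 to 12.7 FPKM, Pfkp from 1.84 to 4.99, Pgam1 from 18.7 to 38.3, Eno2 from 1.2 to 2.64, Pygb, the brain phosphorylase, from 2.78 to 17.3, Phka2, the liver α subunit, from 2.08 to 4.58 and Phkg2, the liver γ subunit, from 3.53 to 5.35. Aldoc, the brain aldolase, ranged from 0.08896 to 0.6597 FPKM, never reached 1 FPKM and was not tested. The 4 bifunctional enzymes that set the level of fructose 2,6-bisphosphate, the allosteric activator of phosphofructokinase, had no dominant form. Pfkfb1 held 27.1% to 46.9% of their summed FPKM, Pfkfb3 17.9% to 53.5%, Pfkfb4 16.5% to 31.2% and Pfkfb2 2.99% to 6.60%. Pfkfb3, the inducible form, held the largest share in all 3 fat-fed KO mice and in 1 KO mouse on chow, and Pfkfb1 in the other 8 libraries.

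Replicates 1 and 3 of the chow-fed KO mice stood apart from the other libraries before any comparison of groups. They had the highest summed adipocyte markers of the 12 libraries (4513, 2078 and 4115 FPKM in the 3 chow-fed KO mice, 591 to 2272 elsewhere) and the lowest summed fast fibre markers (71221, 91179 and 59399 FPKM, 78312 to 108810 elsewhere). They also shared summed lymphoid markers of 78.7 and 77.9 FPKM with replicate 2 of the chow-fed WT mice at 68.5, where the other 9 libraries held at most 6.68. Adipoq was detected in all 12 libraries, from 1.4 FPKM in replicate 1 of the fat-fed WT mice to 224 FPKM. Summed slow fibre markers in fat-fed WT mice were 203, 2761 and 2072 FPKM. As checks of tissue and genotype, fast and slow fibre markers were present in every library, though Myh4 is listed at 0 throughout, and Cryab lay at or above 412 FPKM in each of 6 WT libraries and at or below 1.75 in each of 6 KO libraries. In bulk tissue, fewer cells of a type and less RNA per cell cannot be told apart.

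The means of the 2 isoform classes ran in opposite directions along these marker levels. On the log2(FPKM + 1) scale the mean of the muscle-type isoforms had a Pearson r of 0.90 (Spearman 0.77) with the mean of the fast fibre markers over 12 libraries, and 0.95 on deviations from the group means. The mean of the other-tissue isoforms had a Pearson r of −0.93 (Spearman −0.87) with fast fibre markers, 0.85 with adipocyte markers and 0.82 with macrophage markers. The 2 class means had an r of −0.85 with each other. Neither class mean tracked the slow fibre markers, with r of −0.21 and 0.15. These are descriptions over libraries from 4 groups that share a scaling, and they carry no test. Single members ranged widely in this respect. Gyg had the highest r with fast fibre markers at 0.94, Pygl the lowest at −0.93, and Ldhb (−0.04) and Ppp1r3c (0.00) none to speak of. Relative to the fast fibre markers of the same library, the median SD of the muscle-type isoforms was 0.15 log2 units in place of 0.28. That of the other-tissue isoforms was 0.52 in place of 0.32. Both shifts follow from the correlations above and add no further result.

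**Figure D2:**
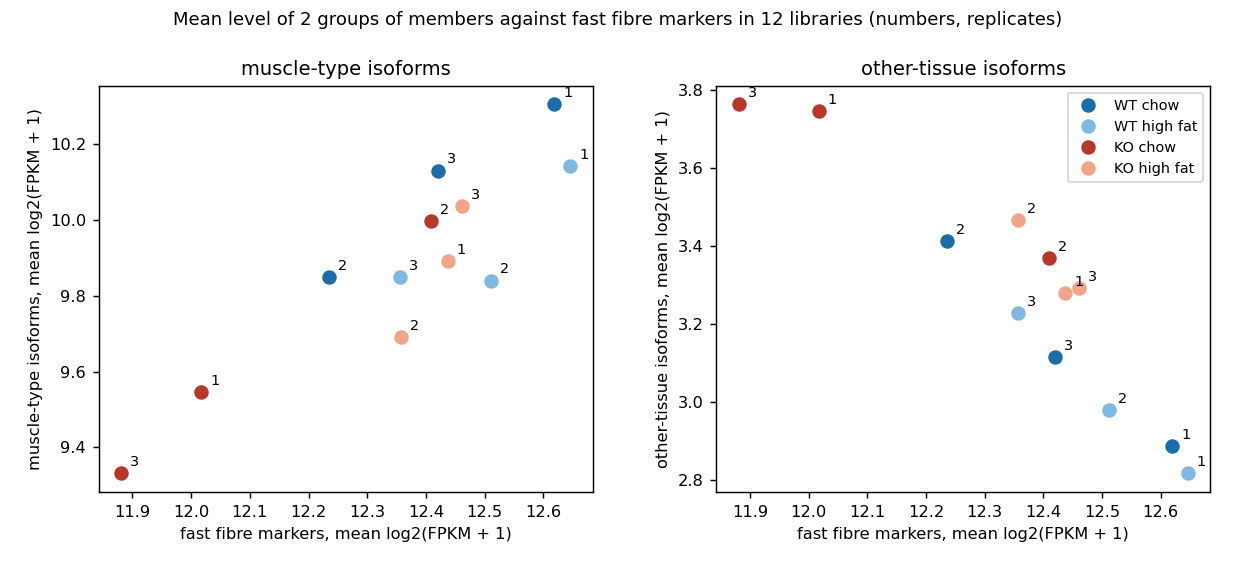
Mean log2(FPKM + 1) of the 10 muscle-type isoforms (left) and of the 11 other-tissue isoforms (right) against the mean of 10 fast fibre markers, with 1 point per library coloured by group and numbered by replicate. The left panel has a Pearson r of 0.90 and the right panel −0.93, and replicates 1 and 3 of the chow-fed KO mice lie at the low end of the fast fibre axis in both.

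**Figure D3:**
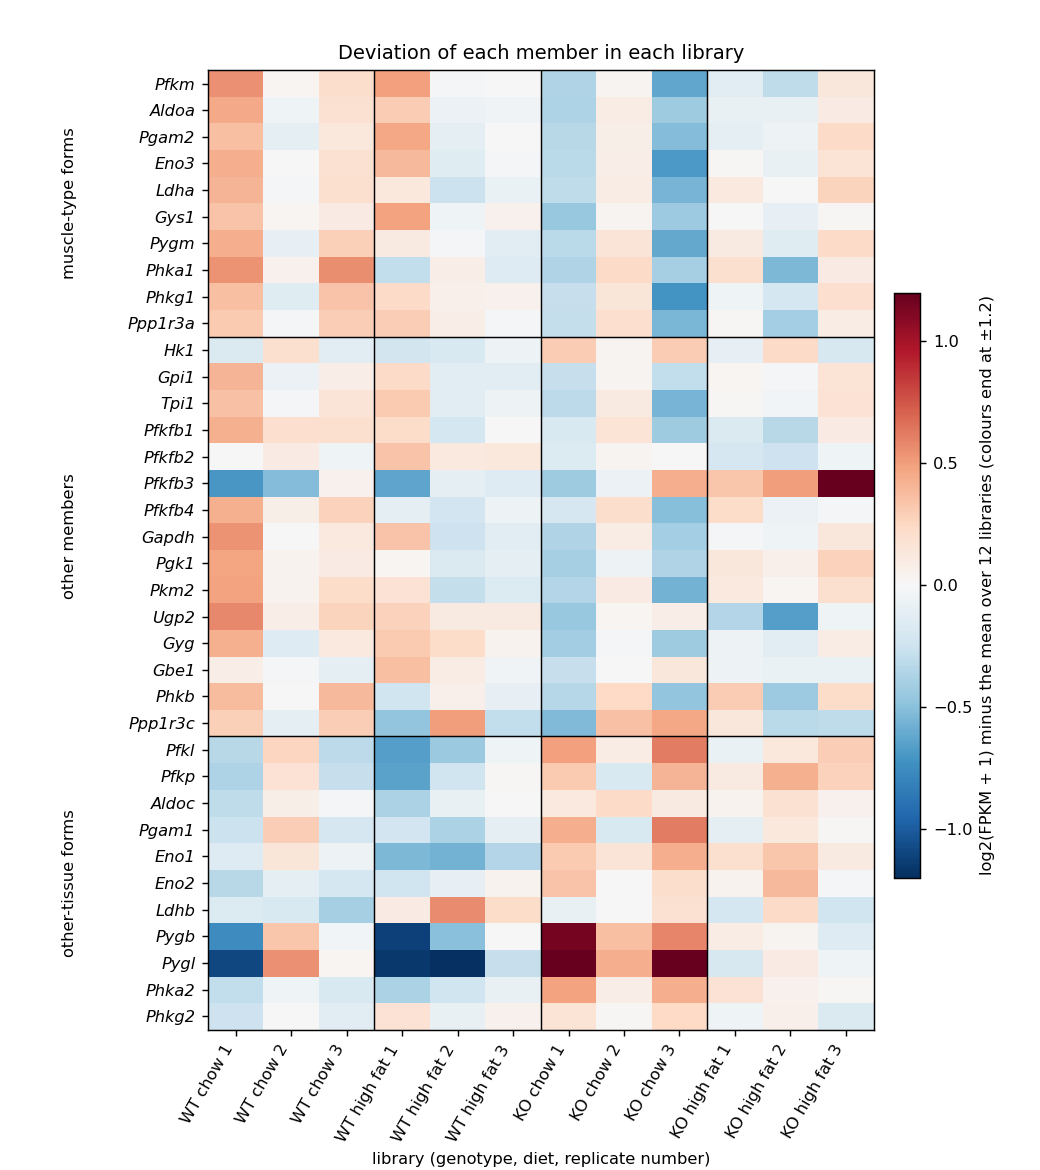
Deviation of each member in each library from its own mean over the 12 libraries, in log2(FPKM + 1), red above and blue below, with colours ending at 1.2 and libraries ordered by group. Muscle-type isoforms (top block) are below their mean and most other-tissue isoforms (bottom block) above it in replicates 1 and 3 of the chow-fed KO mice, while replicate 2 is near the mean for most genes.

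To test differences between groups, limma was fitted to log2(FPKM + 1) of all 11945 genes with at least 1 FPKM in at least 3 libraries, of which 35 are members. Log2 differences are given with their SE, and they understate changes of the lowest genes. A member passed the test at an adjusted p under 0.05, and passed the looser threshold at an unadjusted p under 0.05. The looser count is read against the share of all genes tested that passed the same threshold in the same direction. Refits with another scaling or with 1 mouse left out can change the calls of all genes as well. Where the share over all genes is not printed, a count from a refit describes that fit and is no result about the members. Differences are KO minus WT or high fat minus chow, and where values of 2 groups follow each other, WT or chow comes first. For the members, 8 at most are named in each comparison, in order of p. The comparisons share groups with each other, so their results are not independent.

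On normal chow, the first question was whether loss of the 2 chaperones goes with other levels of these genes in the absence of a dietary load. Muscle-type isoforms had lower mean levels and other-tissue isoforms higher ones in KO mice, though no member passed after adjustment. None of the 35 members passed at an adjusted p under 0.05, where 0.0586% of all genes tested did. At the looser threshold 7 members were higher, against 6.73% of all genes, and 16 were lower, against 9.93%. The median log2 difference of the members was −0.41, and that of all genes −0.03. Of the 10 muscle-type isoforms, 8 passed the looser threshold and all 10 had a difference below 0, with a median of −0.46. Of the 10 other-tissue isoforms tested, 7 passed it and all 10 had a difference above 0, with a median of 0.37. The signs of all 20 were the same with quantile normalization and with scaling to fast fibre markers. That scaling raises every difference here alike, as the mean of the fast fibre markers was 12.42 in WT and 12.10 in KO mice. It could not change a sign above 0, so it checks only the muscle-type isoforms. Median-of-ratios size factors lay between 0.998 and 1.014, so that refit hardly changes the data and is no check. Genes of a class vary together between libraries (median r of 0.94 for a muscle-type isoform with the mean of the others). Their signs are therefore not independent.

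Phka2 had the smallest p, at 2.26, 2.86 and 2.52 FPKM in WT mice and 4.58, 3.25 and 4.42 in KO mice, without overlap (log2 0.51 ± 0.12, unadjusted p = 0.00142, adjusted p = 0.263). Pgk1 was next and in the other direction, also without overlap (log2 −0.48 ± 0.14, unadjusted p = 0.00516, adjusted p = 0.270). Pygl was at 2.62, 10.3 and 6.85 FPKM in WT mice and 19.4, 9.44 and 20.8 in KO mice, and the groups overlapped through replicate 2 of each (log2 1.28 ± 0.41, unadjusted p = 0.00925, adjusted p = 0.277). Eno2, the neuronal enolase, was at 1.2, 1.57 and 1.396 and 2.52, 1.76 and 2.22 FPKM without overlap (log2 0.40 ± 0.14, unadjusted p = 0.0136, adjusted p = 0.277). Eno1, the enolase of most tissues, was at 66.4, 81.99 and 71.0 and 92.4, 82.4 and 101 FPKM, with the highest WT value just under the lowest KO value (log2 0.32 ± 0.11, unadjusted p = 0.0143, adjusted p = 0.277). Pkm2 (log2 −0.52 ± 0.18, unadjusted p = 0.0164, adjusted p = 0.277) and Pfkm (log2 −0.58 ± 0.21, unadjusted p = 0.0189, adjusted p = 0.280) were lower, with overlapping groups. Pygb was at 3.88, 9.404 and 7.07 and 17.3, 9.58 and 11.3 FPKM (log2 0.85 ± 0.32, unadjusted p = 0.0221, adjusted p = 0.281). The other members past the looser threshold were Pfkl and Phkg2, which were higher, and Gyg, Gys1, Pfkfb4, Ldha, Eno3, Pfkfb1, Phka1, Aldoa, Tpi1, Pygm, Ugp2, Phkg1 and Gapdh, which were lower, with log2 differences of −0.42 to −0.56 among these last 13. By role, lower members were 3 of 7 in upper glycolysis, 4 of 8 in lower glycolysis, 3 of 4 in glycogen synthesis and 2 of 5 in phosphorylase kinase.

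The chow result rested on few libraries. Without replicates 1 or 3 of the KO mice the count at the looser threshold was 6 each. It was 3 without replicate 1 of the WT mice, 11 without replicate 3 of the WT mice and 30 without replicate 2 of the KO mice. The share of all genes that passed in each of these fits is not given. The counts therefore show how far the calls move with single mice and are no result about the members. Phka2, Pgk1 and Pygl kept an unadjusted p under 0.05 in all 6 fits that left out 1 mouse. Eno1, Pkm2 and Pfkm lost it without replicate 1 of the WT mice or replicate 3 of the KO mice, and Eno2 and Pygb without replicate 1 of either. Without the 3 libraries that held lymphoid markers, which leaves 1 KO mouse on chow that is assumed to vary like the other groups, 0 members passed the looser threshold, where 2.65% of all genes did, with a median of −0.14. After each library was scaled to its fast fibre markers 10 passed, 9 higher and 1 lower, where 22.2% of all genes did, with a median of −0.08 where the median of all genes was 0.30. Of the 8 members named with statistics, Pgk1 and Pkm2 lost their call under this scaling. Summed fast fibre markers were 108810, 78312 and 97703 FPKM in chow-fed WT mice. All 7 adipocyte markers, all 8 lymphoid markers, all 5 macrophage markers and all 5 Schwann cell markers had differences above 0 in the same comparison, with medians of 1.42, 1.12, 0.66 and 0.94. Of these, 1, 0, 2 and 2 passed the looser threshold, and all 10 fast fibre markers tested had differences below 0. Their part in the result was not tested.

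**Figure D4:**
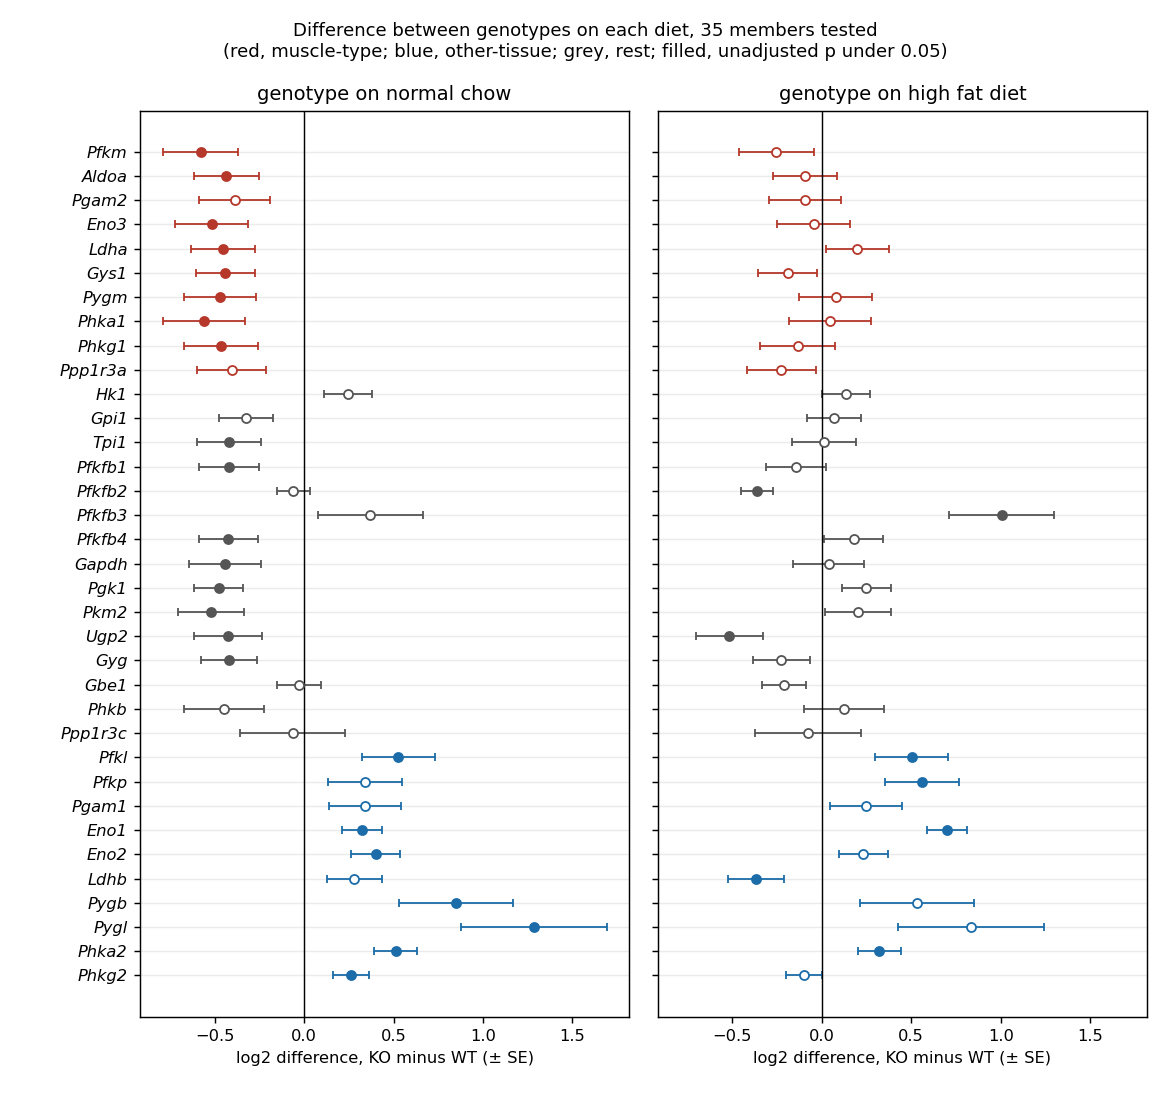
Log2 difference between KO and WT mice (KO minus WT, ± SE) in chow-fed mice (left) and fat-fed mice (right) for the 35 members tested, with muscle-type isoforms in red, other-tissue isoforms in blue, the rest in grey, and filled points at an unadjusted p under 0.05. On chow 23 points are filled and on high fat diet 8, and Eno1 has the smallest SE relative to its difference on high fat diet (0.70 ± 0.11).

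The same comparison of genotypes was made in fat-fed mice. Eno1 and Pfkfb3 were higher in KO mice and Ugp2 and Pfkfb2 lower at the looser threshold, and no muscle-type isoform passed it. None of the members passed at an adjusted p under 0.05, where 0.109% of all genes tested did. At the looser threshold 5 of 35 were higher, against 9.79% of all genes, and 3 of 35 lower, against 6.45%, so both counts lie little above these shares. The median log2 difference of the members was 0.04, and that of all genes −0.01. None of the 10 muscle-type isoforms passed the looser threshold, and 7 had a difference below 0, or 5 and 6 with quantile normalization and with scaling to fast fibre markers. Of the 10 other-tissue isoforms, 4 passed higher and 1 lower, and with scaling to fast fibre markers 1 higher, Eno1, and 0 lower. Under that scaling 6 members passed higher and 1 lower, and Pfkfb2, Pfkp, Phka2, Pfkl and Ldhb lost their calls. The share of all genes that passed under it is not given here, so these counts are no result about the members.

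Eno1 was at 50.7, 49.8 and 57.9 FPKM in WT mice and 84.98, 93.7 and 80.04 in KO mice. The groups were far apart, and this was the smallest p of any member in any simple comparison (log2 0.70 ± 0.11, unadjusted p = 6.35e-05, adjusted p = 0.0506). Pfkfb2, the heart form of the bifunctional enzyme, was at 6.31, 5.25 and 5.29 and 4.02, 3.86 and 4.55 FPKM without overlap (log2 −0.36 ± 0.09, unadjusted p = 0.00226, adjusted p = 0.10). Pfkfb3 was at 20.9, 30.3 and 29.5 and 41.8, 47.1 and 81.5 FPKM, also without overlap, with replicate 3 of the KO mice the highest of 12 libraries (log2 1.01 ± 0.29, unadjusted p = 0.00561, adjusted p = 0.131). Ugp2 was at 295, 261 and 262 and 191, 154 and 235 FPKM (log2 −0.52 ± 0.19, unadjusted p = 0.0195, adjusted p = 0.209). Pfkp, the platelet phosphofructokinase, was at 1.84, 2.78 and 3.49 and 3.79, 4.99 and 4.38 FPKM (log2 0.56 ± 0.21, unadjusted p = 0.0203, adjusted p = 0.212). These 2 also did not overlap. Phka2 was higher at 2.08, 2.39 and 2.76 and 3.53, 3.16 and 3.05 FPKM (log2 0.32 ± 0.12, unadjusted p = 0.0224, adjusted p = 0.218), and Pfkl at 4.68, 5.58 and 7.61 and 7.49, 8.79 and 9.998 (log2 0.50 ± 0.20, unadjusted p = 0.0309, adjusted p = 0.252). Ldhb was lower, at 184, 256 and 201 and 149, 202 and 146 FPKM with overlap (log2 −0.37 ± 0.16, unadjusted p = 0.0370, adjusted p = 0.272).

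The adjusted p of Eno1 on high fat diet lay between 0.0337 and 0.185 over 6 fits that left out 1 mouse, and only the fit without replicate 3 of the WT mice was under 0.05. Its log2 difference stayed between 0.64 and 0.76 in them. Pfkfb2 and Pfkfb3 kept an unadjusted p under 0.05 in all 6 fits. The looser count was 4 without replicate 1 of the WT mice and 5 without replicate 2 of the KO mice, and Ugp2 and Pfkp lost their p without either of these. Phka2 lost it without replicate 1 of either genotype, Pfkl in 4 of the 6 fits and Ldhb in 3. All 7 adipocyte markers and all 5 macrophage markers had differences above 0 here, with medians of 2.53 and 1.33, and 5 of the first and all 5 of the second passed the looser threshold. Summed macrophage markers were 12.2, 29.8 and 30.8 FPKM in WT mice and 62.5, 97.6 and 51.7 in KO mice. Their part in the differences of Eno1 and the other members was not tested.

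Averaged over both diets, Eno1 was the only member past the adjusted threshold (log2 0.51 ± 0.08, unadjusted p = 4.65e-05, adjusted p = 0.0206), where 0.862% of all genes tested passed. Over 6 mice a genotype it ran from 49.8 to 82.0 FPKM in WT mice and from 80.0 to 101 in KO mice, so 1 WT mouse on chow overlapped the KO range. The looser threshold was passed by 8 members with higher levels, against 13.1% of all genes, and 7 with lower levels, against 13.4%. The median of the members was −0.13, which became 0.01 with quantile normalization and 0.08 with scaling to fast fibre markers, and that of all genes was −0.02. Phka2 did not overlap between the genotypes over all 12 mice, with WT mice at 2.08 to 2.86 FPKM and KO mice at 3.05 to 4.58 (log2 0.42 ± 0.09, unadjusted p = 0.000498, adjusted p = 0.0513). Pygl (log2 1.06 ± 0.29, unadjusted p = 0.00368, adjusted p = 0.0727), Pfkl (log2 0.51 ± 0.14, unadjusted p = 0.00427, adjusted p = 0.0749), Pfkfb3 (log2 0.69 ± 0.21, unadjusted p = 0.00686, adjusted p = 0.0857) and Eno2 (log2 0.32 ± 0.10, unadjusted p = 0.00747, adjusted p = 0.0879) were higher. Ugp2 (log2 −0.47 ± 0.13, unadjusted p = 0.00480, adjusted p = 0.0771) and Pfkfb2 (log2 −0.21 ± 0.06, unadjusted p = 0.00765, adjusted p = 0.0883) were lower. Pfkp and Pygb were the other higher members, and Gyg, Pfkm, Gys1, Pfkfb1 and Ppp1r3a the other lower ones. Glycogen synthesis had 3 of its 4 members lower, at −0.47 for Ugp2 and −0.32 for both Gyg and Gys1, and the last, Gbe1, at −0.12 did not pass. With scaling to fast fibre markers 1 of the 4 passed and their median was −0.12 in place of −0.32. In this comparison all 5 macrophage markers were higher at the looser threshold, 1 of them after adjustment (median 0.98), as were 6 of 7 adipocyte markers (median 2.02), and all 10 fast fibre markers had differences below 0 (median −0.19). Their part in the differences of Eno1 and the other members was not tested.

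The call on Eno1 averaged over diets depended on single mice and on the processing. Without the filter on low values its adjusted p was 0.0659, and with the replicate number as a block 0.0624. It held in 7 of 12 fits that left out 1 mouse, with an adjusted p of 0.0274 to 0.0676 and a log2 difference of 0.48 to 0.55, and it was lost without replicates 1 or 3 of the chow-fed WT mice, replicate 3 of the chow-fed KO mice, or replicates 1 or 2 of the fat-fed KO mice. The adjusted count was 11 without replicate 2 of the chow-fed KO mice, 4 without replicate 2 of the chow-fed WT mice and 4 without replicate 3 of the fat-fed WT mice. The looser count was 26 without replicate 2 of the chow-fed KO mice. No share of all genes stands beside the counts of these fits, so they are no result about the members. Without the 3 libraries with lymphoid markers 9 members passed the looser threshold, where 11.6% of all genes did, and Eno1 had an adjusted p of 0.173 with a log2 difference of 0.48. After scaling to fast fibre markers 12 passed, 10 higher and 2 lower, where 24% of all genes did, and Eno1 had 0.71 with an adjusted p of 0.0828. All 8 members named here kept an unadjusted p under 0.05 in all 12 fits without 1 mouse, and Pfkfb2 lost it with scaling to fast fibre markers.

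**Figure D5:**
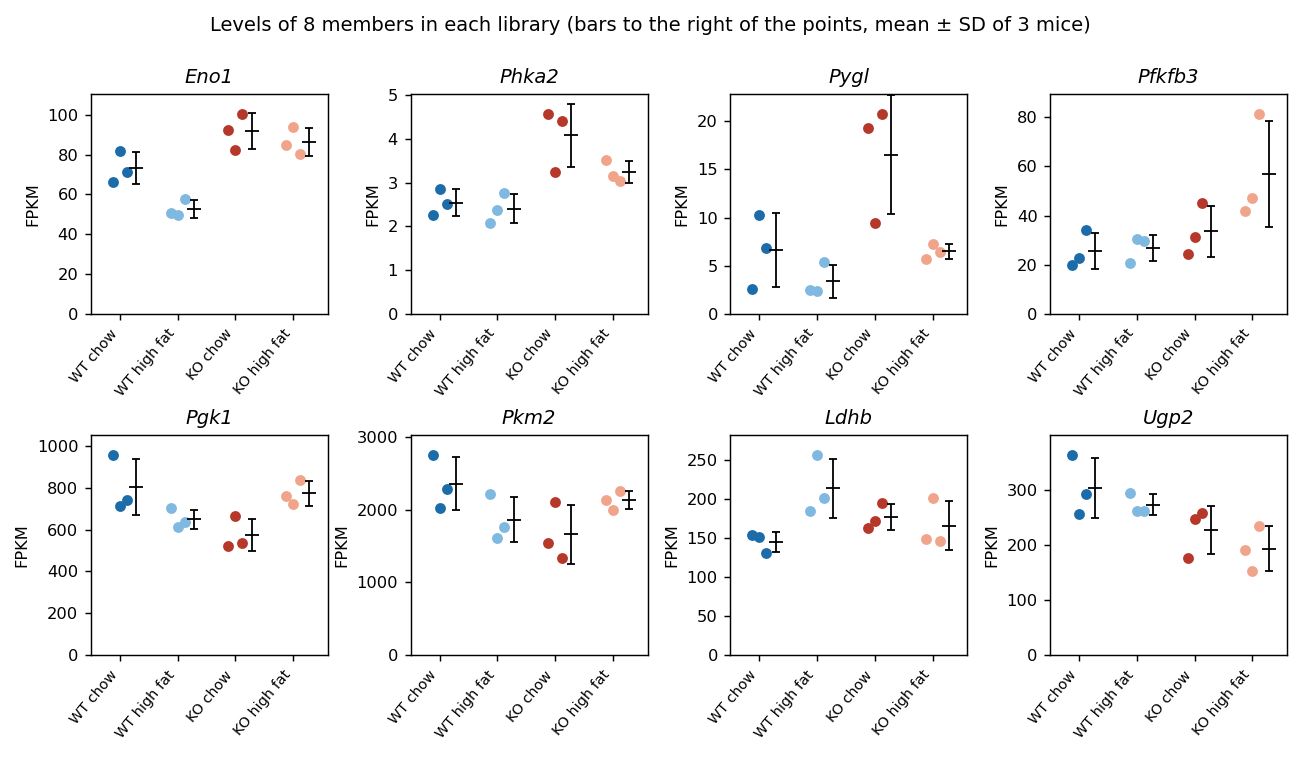
Level in FPKM of 8 members in each mouse, by group, with the mean ± SD of 3 mice drawn to the right of the points and each axis starting at 0. Eno1 separates the genotypes most clearly on high fat diet (49.8 to 57.9 FPKM in WT mice and 80.0 to 93.7 in KO mice), and Pgk1 has a lower mean on the diet in WT mice, a difference that did not pass, and a higher one in KO mice.

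In WT mice, the question was what the high fat diet itself goes with. Eno1 was lower and Ldhb higher on the diet at the looser threshold. None of the members passed at an adjusted p under 0.05, where 0.1% of all genes tested did. At the looser threshold 1 of 35 was higher, against 4.42% of all genes, and 3 of 35 lower, against 3.7%. These counts are too small to set the members apart from all genes. The median of the members was −0.13, with 27 of 35 differences below 0, and that of all genes −0.01. Eno1 was at 66.4, 81.99 and 71.0 FPKM on chow and 50.7, 49.8 and 57.9 on high fat diet (log2 −0.46 ± 0.11, unadjusted p = 0.00170, adjusted p = 0.155). Ldhb was at 153, 151 and 131 and 184, 256 and 201 FPKM (log2 0.54 ± 0.16, unadjusted p = 0.00499, adjusted p = 0.256). Neither overlapped, and both kept their unadjusted p under 0.05 in all 6 fits without 1 mouse. Summed slow fibre markers were 1423, 1125 and 348 FPKM on chow and 203, 2761 and 2072 on high fat diet. Pfkfb4, the testis form of the bifunctional enzyme (log2 −0.39 ± 0.17, unadjusted p = 0.0371, adjusted p = 0.550), and Phka1 (log2 −0.51 ± 0.23, unadjusted p = 0.0493, adjusted p = 0.609) were lower. Pfkfb4 lost its p in 5 of 6 such fits and Phka1 in 4, and the count was 2 without replicate 3 on chow. With scaling to fast fibre markers 0 members passed higher and 13 lower, and Ldhb lost its call. This scaling moves all genes of a library together. The share of all genes that passed under it is not given here, so 13 is no result about the members. With quantile normalization 1 passed higher and 10 lower, where 8.65% of all genes passed in either direction. All 7 adipocyte markers (median −1.35, 1 past the looser threshold) and all 5 macrophage markers (median −0.40, 2 past it) had differences below 0, and the erythroid gene Alas2 was higher (log2 1.60 ± 0.36, unadjusted p = 0.000999, adjusted p = 0.132). The part of these cell types in the result was not tested.

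In fat-fed KO mice the liver and brain phosphorylases were lower and Pgk1 and Pfkfb3 higher than in chow-fed ones at the looser threshold. None of the members passed at an adjusted p under 0.05, where 0% of all genes tested did by limma. At the looser threshold 2 of 35 were higher, against 6.56% of all genes, and 2 of 35 lower, against 4.73%. Both counts lie near the share over all genes, so they are no result about the set. The median of the members was 0.11, which became −0.21 with scaling to fast fibre markers and −0.0024 with quantile normalization, and that of all genes 0.03. Pgk1 was at 524, 664 and 536 FPKM on chow and 761, 721 and 837 on high fat diet without overlap (log2 0.43 ± 0.14, unadjusted p = 0.00926, adjusted p = 0.418). Pygl was at 19.4, 9.44 and 20.8 and 5.75, 7.26 and 6.44 FPKM without overlap (log2 −1.16 ± 0.41, unadjusted p = 0.0159, adjusted p = 0.431), and Pygb was lower in the same way (log2 −0.71 ± 0.32, unadjusted p = 0.0484, adjusted p = 0.441). Pfkfb3 was higher with overlap (log2 0.73 ± 0.29, unadjusted p = 0.0309, adjusted p = 0.432). Pygb lost its p in 5 of 6 fits without 1 mouse and Pfkfb3 in 3. With scaling to fast fibre markers 0 members passed higher and 9 lower, so Pgk1 and Pfkfb3 lost their calls. Pfkfb3 lost its call with quantile normalization too. The share of all genes that passed under the scaling is not given here, so the 9 are no result about the set. All 10 muscle-type isoforms had differences above 0, with a median of 0.26, none past the looser threshold, and with scaling to fast fibre markers 7 of them were below 0. Counts with 1 mouse left out are given with no share over all genes, so they are no result about the set. The count was 17 without replicate 2 on chow, 1 without replicate 1 on chow, 2 without replicate 3 on chow and 2 without replicate 3 on high fat diet. Without the 3 libraries with lymphoid markers, which leaves 1 KO mouse on chow, it was 0. Pygl lost its p without replicates 1 or 3 on chow, and those 2 libraries held the highest adipocyte markers. Fast fibre markers had differences above 0 for 9 of 10 genes (median 0.33), lymphoid markers below 0 for all 8 (median −1.91, 5 past the looser threshold) and adipocyte markers below 0 for 5 of 7 (median −0.61). Their part in the phosphorylase difference was not tested.

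Averaged over genotypes, the members lower on the diet at the looser threshold were Eno1 (log2 −0.27 ± 0.08, unadjusted p = 0.00528, adjusted p = 0.205), Pygl (log2 −0.93 ± 0.29, unadjusted p = 0.00782, adjusted p = 0.231) and Pygb (log2 −0.55 ± 0.23, unadjusted p = 0.0331, adjusted p = 0.337). No member passed at an adjusted p under 0.05, where 0.0586% of all genes tested did. At the looser threshold 0 of 35 were higher, against 7.96% of all genes, and 3 of 35 lower, against 5.94%. The lower count is near its share over all genes. The median of the members was 0.02 and that of all genes 0.01. With quantile normalization and with scaling to fast fibre markers the median was −0.11 and −0.17, so its direction depends on the scaling. Eno1 and Pygl kept an unadjusted p under 0.05 in all 12 fits without 1 mouse, Pygb in 6. The count was 7 without replicate 2 of the chow-fed KO mice and 14, all lower, with scaling to fast fibre markers. Neither count has the share of all genes in the same fit beside it, so neither is a result about the members. All 10 fast fibre markers had differences above 0 (median 0.20), and 6 of 7 adipocyte markers below 0 (median −1.03). Their part in the result was not tested.

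The interaction asks whether the response to the diet differs between genotypes. For Pgk1, Pkm2, Ldha and Pfkfb4 the response in KO mice was above that in WT mice, and for Ldhb it was below. No member passed at an adjusted p under 0.05, where 0% of all genes tested did by limma. At the looser threshold 5 were positive, against 3.55% of all genes, and 3 negative, against 2.7%. The median of the members was 0.28 and that of all genes 0.03. With scaling to fast fibre markers the median of the members was 0.04, with 19 above 0 and 16 below, 4 passed positive and 2 negative, and Pfkfb4, Phkg2 and Eno1 lost their calls. With quantile normalization Eno1 and Pfkfb2 lost theirs. The fast fibre markers themselves had an interaction above 0 for 9 of 10 genes (median 0.31), and all 8 lymphoid markers had one below 0 (median −1.40). Their part in the result was not tested. Pgk1 had a response of −0.29 in WT mice and 0.43 in KO mice (log2 0.73 ± 0.19, unadjusted p = 0.00325, adjusted p = 0.593). Ldhb had 0.54 in WT mice and −0.11 in KO mice (log2 −0.65 ± 0.22, unadjusted p = 0.0131, adjusted p = 0.672). Pkm2 had −0.34 and 0.39 (log2 0.73 ± 0.26, unadjusted p = 0.0177, adjusted p = 0.688), Ldha −0.27 and 0.38 (log2 0.65 ± 0.25, unadjusted p = 0.0250, adjusted p = 0.735), and Pfkfb4 −0.39 and 0.21 (log2 0.60 ± 0.23, unadjusted p = 0.0259, adjusted p = 0.735). Phkg2 (log2 −0.36 ± 0.14, unadjusted p = 0.0294, adjusted p = 0.747), Eno1 (log2 0.37 ± 0.16, unadjusted p = 0.0377, adjusted p = 0.768) and Pfkfb2 (log2 −0.30 ± 0.13, unadjusted p = 0.0395, adjusted p = 0.774) completed the 8. Pgk1, Ldhb and Pkm2 kept an unadjusted p under 0.05 in all 12 fits without 1 mouse, and the other 5 lost it in 4 to 8 of them. The count was 13 without replicate 2 of the chow-fed KO mice, 4 without replicate 1 of the chow-fed WT mice and 4 without replicate 3 of the chow-fed KO mice. It was 5 without replicate 2 of the fat-fed WT mice or replicate 1 of the fat-fed KO mice. These counts, and those with scaling to fast fibre markers, have no share over all genes beside them and are no result about the members.

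Other genes that feed or drain the pathway were counted as a list of 64 symbols, of which 61 were found and 50 tested. None passed at an adjusted p under 0.05 in any comparison. At the looser threshold, higher and lower genes of the 50 are counted beside the share of all genes that passed in the same direction. Genotype on chow gave 8 and 6 (6.73% and 9.93% of all genes), and genotype on high fat diet 5 and 5 (9.79% and 6.45%). Averaged over diets the genotype gave 8 and 14 (13.1% and 13.4%). The diet gave 4 and 7 in WT mice (4.42% and 3.7%), 3 and 7 in KO mice (6.56% and 4.73%) and 6 and 7 averaged over genotypes (7.96% and 5.94%). The interaction gave 2 and 1 (3.55% and 2.7%). Tkt, transketolase of the pentose phosphate pathway, was at 11.5, 29.6 and 22.5 FPKM in chow-fed WT mice, 8.93, 9.698 and 12.4 in fat-fed WT mice, 53.5, 30.7 and 64.9 in chow-fed KO mice and 15.5, 15.8 and 14.3 in fat-fed KO mice. Its levels were highest in replicates 1 and 3 of the chow-fed KO mice, with a diet response in KO mice of log2 −1.58 ± 0.32, unadjusted p = 0.000415, adjusted p = 0.161 and a genotype difference on chow of log2 1.22 ± 0.32, unadjusted p = 0.00268, adjusted p = 0.263. Ppp1r3b, the liver glycogen-targeting subunit, was lower on high fat diet in KO mice (log2 −1.61 ± 0.32, unadjusted p = 0.000398, adjusted p = 0.161), and Pcx, pyruvate carboxylase, was lower on the diet averaged over genotypes (log2 −0.76 ± 0.14, unadjusted p = 0.000211, adjusted p = 0.0765). Pdk4, which shuts pyruvate dehydrogenase when fat is burnt, was higher on high fat diet in WT mice, at 111, 106 and 96.5 and 316, 399 and 183 FPKM (log2 1.44 ± 0.33, unadjusted p = 0.00119, adjusted p = 0.137). It had an interaction at the looser threshold (log2 −1.52 ± 0.47, unadjusted p = 0.00792, adjusted p = 0.618). Hk3, the hexokinase of myeloid cells, was higher in fat-fed KO mice (log2 0.66 ± 0.16, unadjusted p = 0.00140, adjusted p = 0.0925), as were Pgd of the pentose phosphate pathway (log2 0.75 ± 0.21, unadjusted p = 0.00415, adjusted p = 0.117) and Gys2, the liver glycogen synthase (log2 1.48 ± 0.45, unadjusted p = 0.00682, adjusted p = 0.144). Pgm2, a phosphoglucomutase, was lower in chow-fed KO mice (log2 −0.61 ± 0.16, unadjusted p = 0.00348, adjusted p = 0.263) and had an interaction of log2 0.64 ± 0.23, unadjusted p = 0.0192, adjusted p = 0.688. Averaged over diets, Hk3 (log2 0.53 ± 0.11, unadjusted p = 0.000556, adjusted p = 0.0529), Gys2 (log2 1.51 ± 0.32, unadjusted p = 0.000562, adjusted p = 0.0529) and Pcx (log2 0.65 ± 0.14, unadjusted p = 0.000676, adjusted p = 0.0556) were higher in KO mice. Pcx was also higher in chow-fed KO mice (log2 0.73 ± 0.20, unadjusted p = 0.00365, adjusted p = 0.263) and lower on the diet in WT mice (log2 −0.68 ± 0.20, unadjusted p = 0.00531, adjusted p = 0.265) and in KO mice (log2 −0.83 ± 0.20, unadjusted p = 0.00149, adjusted p = 0.273). Averaged over genotypes, Tkt (log2 −1.23 ± 0.22, unadjusted p = 0.000188, adjusted p = 0.0752) and Ppp1r3b (log2 −1.24 ± 0.23, unadjusted p = 0.000199, adjusted p = 0.0752) were lower on the diet.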

How the data were processed

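RNA sequencing was performed by the authors on 12 libraries of mouse hind-limb muscle, 3 in each of 4 groups, with TruSeq libraries and paired-end reads. The submitters' processing notes name TopHat2 2.0.8b and Cuffdiff 2.1.1 and the build mm10, without roles, and the annotation is not given in the sources used here. The deposited values are FPKM per gene, a unit read from the values, so the depth in reads is unknown and no counting interval is given. Among genes with a median of at least 50 FPKM in the other libraries, 16 values of 6 genes are listed at 0, which may be failed estimates. None is of a member.

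Values were used as deposited. Group means were fitted to log2(FPKM + 1) of 11945 genes with at least 1 FPKM in at least 3 libraries, with limma 3.58.1 in R 4.3.3 (trend, 8 residual degrees of freedom), and p-values were adjusted over all of them by the Benjamini-Hochberg method. Descriptions were computed with Python 3.11.15, NumPy 2.4.6, SciPy 1.17.1 and pandas 2.3.3. The fit was tested on simulated data in which genes varied independently, so that test does not cover genes that vary together between libraries. Promoter sequences are from RefSeq (GRCm38.p6), in which all 36 members were found, Pkm2 as Pkm.

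The members and gene lists were chosen with earlier results of these data known. Every member was named with its level. In each comparison, members past the adjusted threshold and then those past an unadjusted p of 0.05, up to 8 in order of p, were named with statistics, as were the 3 other pathway genes with the smallest p, of which 1 gene is not reported here. Alternatives covered the pseudocount, the filter, the scaling, listed zeros, the genotype label, the replicate block, fits of only the groups compared and each mouse left out. Scaling to fast fibre markers and leaving out the 3 libraries with summed lymphoid markers of at least 10 FPKM were chosen after seeing the data. Each p-value sets a difference between group means against the spread within groups, as estimated from these 12 samples.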

Additional observations from a re-analysis of the deposited data

Results flagged for a closer look

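Pgk1 had an interaction of 0.73 on the log2 scale at an unadjusted p under 0.05 (limma, unadjusted p = 0.00325, adjusted p = 0.593), with a lower level on high fat diet in 3 of 3 WT mice and a higher level in 3 of 3 KO mice than in any mouse of the same genotype on chow. It drew attention because the test of the difference between the 2 responses itself passed the unadjusted threshold. The WT groups were close, at 701 against 712 FPKM, and the diet difference in WT mice did not pass that threshold (limma, unadjusted p = 0.055). The interaction does not pass after adjustment over all genes.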

How the results depend on the processing

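Of 201 counts and medians recomputed under alternatives other than leaving out 1 mouse, 171 stayed within 1.5 times the reported count or, for a median, within the SD between replicates of 0.27. This total is no measure of stability. The adjusted count was 0 in most comparisons and could hardly fall. Of 67 medians 64 stayed, but the SD exceeds most of the reported medians. Most changes were in the unadjusted counts. Within that SD some medians changed sign, with quantile normalization and scaling to fast fibre markers in turn. For diet averaged over genotypes 0.02 became −0.11 and −0.17, for genotype averaged over diets −0.13 became 0.01 and 0.08, and for diet in KO mice 0.11 became −0.0024 with quantile normalization. Without the 3 libraries with lymphoid markers the first of these was −0.14 and the last −0.065. The cause of the changes below was not tested. Calls over all genes change in the same refits, so a count without that share is no result about the members. For diet in WT mice, 6.77% of all genes passed the unadjusted threshold without the filter. The share was 7.79% with genotypes from the genotype label and 8.65% with quantile normalization. The number of members past the unadjusted threshold was 4 for diet in WT mice, and it was 2 without the filter, 1 with genotypes from the genotype label, 11 with quantile normalization, 13 with scaling to fast fibre markers and 8 without the 3 libraries with lymphoid markers. For diet in KO mice it was 4, then 2 without the filter, 9 with scaling to fast fibre markers, where the median was −0.21, and 0 without those 3 libraries. For genotype on chow it was 23, then 14 without the filter, 13 with only the 2 groups compared, 1 by the label (median −0.089), 10 with scaling to fast fibre markers (median −0.083) and 0 without those 3 libraries. For genotype on high fat diet 1 member passed the adjusted threshold when listed zeros were taken as missing, and 3 passed the unadjusted one by the label, in place of 8. For diet averaged over genotypes the count was 3, then 1 by the label, 6 with quantile normalization and 14 with scaling to fast fibre markers. For genotype averaged over diets 1 member passed the adjusted threshold, and 2 with quantile normalization, 0 without the filter, 0 by the label, 0 with scaling to fast fibre markers and 0 without the 3 libraries. Its unadjusted count was 15, then 0 by the label and 9 without the 3 libraries. For the interaction it was 8, then 5 by the label and 3 without the 3 libraries.

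With 1 mouse left out, the unadjusted counts ranged from 2 to 5 for diet in WT mice, 1 to 17 for diet in KO mice, 3 to 30 for genotype on chow, 4 to 11 for genotype on high fat diet, 2 to 7 for diet averaged over genotypes, 12 to 26 for genotype averaged over diets and 4 to 13 for the interaction. The adjusted count ranged from 0 to 1 for genotype on high fat diet and from 0 to 11 for genotype averaged over diets. The shares of all genes in the same fits are not given, so these ranges describe the fits and not the members.

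With genotypes from the genotype label, which conflicts with the title in 6 samples and with Cryab in the same libraries, 20 values of named members reversed. In WT mice the diet difference of Eno1 became 0.17 and that of Pfkfb4 0.013. On high fat diet the genotype difference of Eno1 became −0.60, Pfkfb2 0.36, Pfkfb3 −0.32, Ugp2 0.61, Pfkp −0.42, Phka2 −0.29, Pfkl −0.24 and Ldhb 0.16. Averaged over diets Eno1 became −0.23, Pfkl −0.0025, Ugp2 0.073, Pfkfb3 −0.19, Eno2 −0.0057 and Pfkfb2 0.14. The interaction of Ldhb became 0.057, Pfkfb4 −0.13, Eno1 −0.74 and Pfkfb2 0.43.

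The correlation of same-numbered deviations ran from −0.81 to 0.39. Without correlations of differently numbered mice to set beside it, this range cannot decide whether replicate numbers pair the mice. With the replicate block the unadjusted counts were 3 for diet in WT mice, 3 for diet in KO mice, 17 for genotype on chow, 8 for genotype on high fat diet, 4 for diet and 13 for genotype averaged, and 6 for the interaction. The 1 member past the adjusted threshold for genotype averaged over diets was then Pfkfb3 (limma, adjusted p = 0.0300), while Eno1 had 0.0624.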
